A study of Mus musculus with 5 samples.

Results

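The comparison set 2 clones of mouse CD8+ T cells against each other, clone 1 and clone 2, each grown from a single sorted founder cell. The members are 4 of the series' 5 samples, 2 replicates per clone, chosen by their labels; the remaining sample, the non-clonal population, enters as context only and in no test. All samples are primary CD8+ T cells of the C57BL/6 strain, an inbred strain, so parental chromosome copies cannot be told apart by sequence. Naive T cells from spleen were grown with the growth factor IL2 (1.2 ng/ml) for 2 days and sorted as single CD8+ cells. Antibodies to CD3 and CD28 were used with these cells, and the labels give both clones 15 cell divisions. The labels name no age or sex and do not say whether the founders came from the same mouse. Each clone's 2 replicates share a single deposited file, so each clone is 1 pooled library from 1 founder, and every test below compares these 2 libraries, with no spread between replicates.

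In mammals, DNA methylation is carried mostly by cytosines followed by guanine (CpGs). After replication the enzyme Dnmt1 copies the mark from the parental strand to the new one, Dnmt3a and Dnmt3b can add it anew, and Tet enzymes can start its removal. A diploid cell holds a maternal and a paternal copy of each autosome, and each copy carries its own marks. A clone therefore begins from the marks of a single cell, while a population mixes the marks of many.

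DNA was cut with MspI, which cuts at CCGG, and bisulfite sequencing read the CpGs of each tagged molecule as methylated (written 1) or unmethylated (0). The clone files listed 11969176 and 8977287 molecules, of which 7013054 and 5567534 carried a CpG call, and the population's 5588357. Calls came in similar shares from both strands, with 49.9% of molecules on the plus strand in either clone. Single-read molecules were 74.9% in clone 1 and 60.4% in clone 2. The files number the fragments and pair them with no position or gene, so fragments are named by number and the cell type could not be checked against marker genes.

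The clones had nearly the same average methylation and differed at many single CpGs. A total of 779287 CpGs had at least 10 molecules in both clones. Their mean level was 49.7% in clone 1 and 50.2% in clone 2, a difference of 0.503 percentage points. At 80.98% of these CpGs the clones lay within 10 percentage points of each other, while 3.69% differed by at least 50 points. Called CpGs, with an adjusted p under 0.05 in Fisher's exact test and a difference of at least 20 points, made up 5.39% of those tested. Of the calls, 19934 were higher in clone 1 (2.56% of tested CpGs) and 22063 were higher in clone 2 (2.83%). The median called CpG differed by 52.8 points. This size depends on depth, since small differences cannot pass at few molecules: the median was 49.8 points with 20 to 29 molecules in the less covered clone and 35.9 points with 50 or more. Just outside the coverage rule, 67011 CpGs with 9 molecules in the less covered clone had a mean difference of 0.444 points, against 0.527 at the 62201 CpGs with 10.

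Fragments with few CpGs had the highest share of called CpGs. On fragments with 2 to 4 CpGs, where both clones were mostly methylated (84.0% and 85.0%), 7.03% of CpGs were called. The share was 6.59% with 5 to 9 CpGs and 3.88% with 10 to 19. On fragments with 20 or more CpGs, which were nearly unmethylated in both clones (5.19% and 5.23%), it was 2.01%. Clone 2 held 53.8% of the calls on the CpG-poor fragments and 49.3% on those with 20 or more CpGs, so direction was near even in each class.

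A between-clone index gave the size of the divergence without calling any CpG. It takes the chance that 2 molecules of the same clone differ at a CpG, 9.20% on average, and the chance that molecules of different clones differ, 11.6%. The index, 1 minus the ratio of these chances, is 0 where the clones match and 1 where each is uniform and they differ. It was 0.204 over all CpGs, and close to that on fragments with 2 to 4 CpGs (0.202), 5 to 9 (0.207) and 10 to 19 (0.207), with 0.1801 at 20 or more. Sites on sparse fragments were therefore called more often while their index was about the same as on denser ones, up to 19 CpGs.

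The levels of both clones gathered at the ends and the middle of the scale. Among 309997 CpGs with at least 20 molecules in each clone, 75.6% were at the same end in both, at most 10% or at least 90%. Another 4.47% had 1 clone at 40 to 60% and the other at an end, which made up 52.6% of the 24439 called CpGs in this set. Opposite ends, 1 clone at most 10% and the other at least 90%, were seen at 1148 CpGs, 4.70% of the called ones. Both clones stood at 40 to 60% at 2891 CpGs. The change most often called was thus between an end and the middle: 4044 called CpGs had clone 1 in the middle with clone 2 methylated, and 3332 the reverse. On the unmethylated side, 2629 had clone 1 in the middle and clone 2 unmethylated, and 2846 the reverse.

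**Figure D1:**
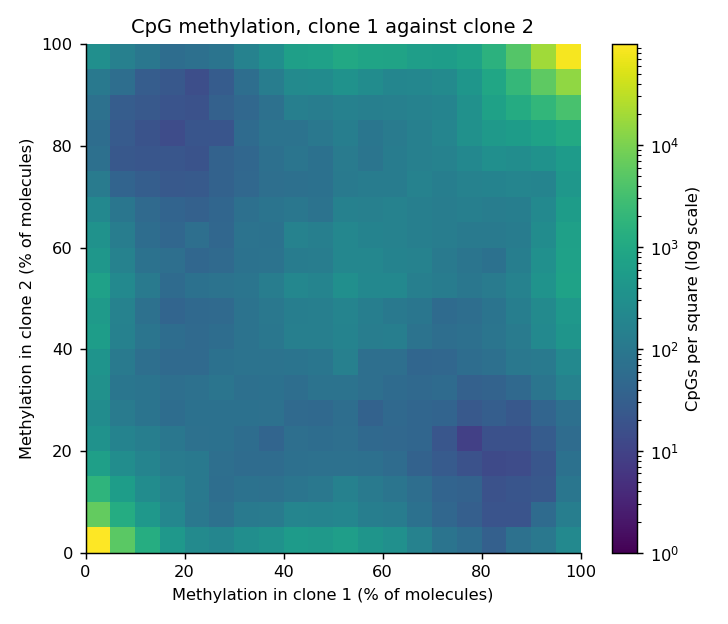
Methylation of 309997 CpGs in clone 1 (x axis, % of molecules) and clone 2 (y axis, % of molecules), each with at least 20 molecules in both clones; colour gives CpGs per square of 5 by 5 percentage points on a log scale. Most CpGs lie in the lower left and upper right corners, and fainter concentrations run along the edges at 40 to 60%, where 1 clone is at an end and the other in the middle.

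CpGs that were mixed in the population separated the clones most often. The population's molecules took no part in the calls, so its level is a label independent of both clones. Of 20628 CpGs at 40 to 60% in the population, 26.2% were called between the clones, and of 21752 at 20 to 40%, 25.7%. The share was 18.3% at 60 to 80%, 3.60% over 80% and 3.22% under 20%. CpGs at 20 to 80% were 12.2% of those tested and 47.7% of those called. The other calls at CpGs with population coverage fell under 20% (9218) and over 80% (10383), so that more calls lay outside the mixed range than the 17904 inside it. At called CpGs the population lay between the clones' levels in 83.4% of cases. The rule for a call makes this gap wide (median 52.0 points), and no share at uncalled CpGs was computed for comparison. The population was nearer to clone 1 at 18885 called CpGs and nearer to clone 2 at 18532.

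The index was also highest at mixed CpGs, in another order than the shares called. It was 0.289 at 20 to 40% in the population, 0.2796 at 40 to 60%, 0.251 at 60 to 80%, 0.2055 under 20% and 0.134 over 80%. At 40 to 60% in the population, 2 molecules of the same clone still differed with a chance of 31.9%, against 44.2% for molecules of different clones. Molecules of a single clone were thus far from uniform also at the CpGs that separated the clones most often. Among 9507 such CpGs with at least 20 molecules in each clone, 9.45% were at the same end in both clones, 3.04% at opposite ends, 15.1% at an end in 1 clone and in the middle in the other, and 8.95% in the middle in both. The largest part, 63.5%, had some other combination of levels, and it held 49.8% of the called CpGs in this set.

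**Figure D2:**
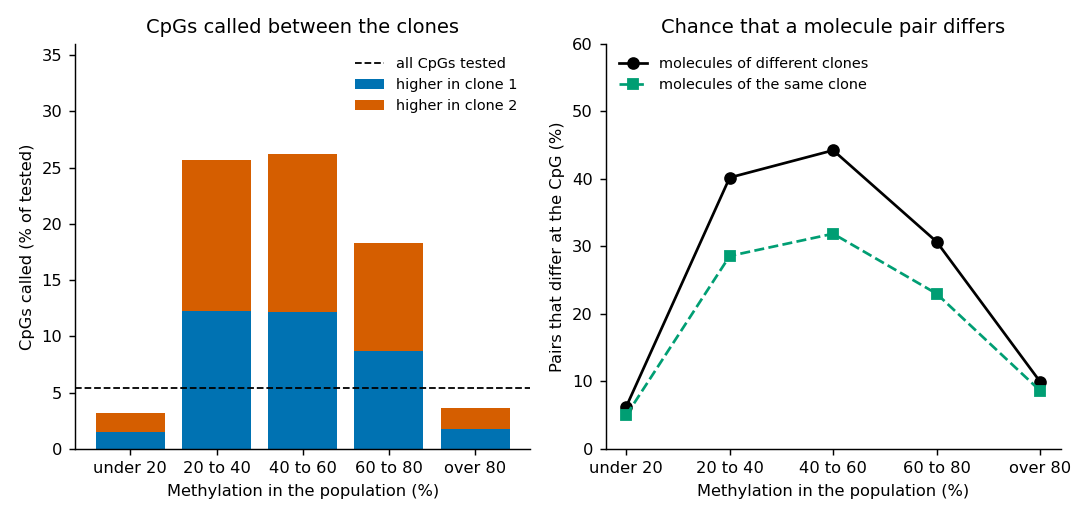
Left, CpGs called between the clones as % of CpGs tested, by the level in the population (x axis, %), split by the clone with the higher level; the dashed line is the 5.39% of all CpGs. Right, chance (%) that 2 molecules differ at the CpG, for molecules of different clones and of the same clone. Both panels peak at CpGs at 20 to 60% in the population, and the bars hold similar parts for either clone.

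Differences called on 1 DNA strand were present on the other. Plus and minus strand molecules carry separate calls, and 177386 CpGs on 49670 fragments had at least 10 molecules on each strand of each clone. At 3124 CpGs called higher in clone 1 on the plus strand, the minus strand stood at 79.0% in clone 1 and 27.6% in clone 2, and 99.6% of them kept their direction. At 3644 called higher in clone 2, the minus strand stood at 26.0% and 78.8%, and 99.5% kept it. Calls on the minus strand read on the plus strand gave 99.2% in either direction. The index between clones was 0.201 on the plus strand and 0.20002 on the minus strand, against 0.00872 between strands of clone 1 and 0.0108 between strands of clone 2. Calls between strands of the same clone were 70 in clone 1 (0.0395% of CpGs) and 68 in clone 2 (0.0383%), against 3.82% and 3.72% between clones on the plus and the minus strand. Both strands of a clone come from the same pooled library, so this bears on the molecules and not on repeat cultures. The correlation of the clone difference between strands was 0.79 (Pearson) over these CpGs, which share fragments and libraries.

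Counted as whole fragments by the majority of each molecule's CpGs, a smaller share differed. For the 129568 fragments with at least 4 CpGs and at least 10 molecules in both clones, a molecule counted as methylated when more than 50% of its observed CpGs were. By this count 2.46% of fragments were called, with 1466 higher in clone 1 (1.13%) and 1722 higher in clone 2 (1.33%). The fragment index by this count was 0.118, another measure over other sites than the 0.204 for single CpGs. When a molecule had to be methylated at all observed CpGs to count as methylated, more fragments were called. Their share was then above that of single CpGs, so whether fragments differed less often than CpGs depends on this rule. Among the calls by majority, 116 fragments stood at opposite ends, 53 with clone 1 methylated and 63 with clone 2 methylated. A further 1161 had 1 clone at 40 to 60% and the other at an end. Of 3016 called fragments with at least 10 population molecules, 57.9% were at 20 to 80% in the population, against 11.5% of all tested fragments with that coverage. At fragments in the middle in clone 1 and methylated in clone 2, the population's median was 77.8%, and it was 80% with the clones' roles exchanged. At fragments in the middle in 1 clone and unmethylated in the other, the population's medians were 23.5% (clone 1 in the middle) and 18.2% (clone 2 in the middle). At opposite ends the population's medians were 49.1% and 52.4%.

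Of the 6 deepest fragments at opposite ends, 3 in each direction, none had every CpG called. Within each class, those named are the best covered in the clone with fewer molecules. At fragment 975038, with 5 CpGs, clone 1 was methylated on 44 of 45 molecules (97.8%, Wilson 95% interval 88.4 to 99.6%, counting error only), clone 2 on 1 of 44 (0.402 to 11.8%) and the population on 18 of 31. The adjusted p was 5.06e-18 by Fisher's exact test, here and below after Benjamini and Hochberg over all items of that kind. Its CpGs 2 and 4 were methylated on 0 of 40 and 0 of 42 clone 2 molecules, while CpG 1 was methylated on 13 of 13, CpG 3 on 17 of 42 and CpG 5 on 10 of 26. Over its 3 inner CpGs, 28 of 36 clone 1 molecules read 111, whereas clone 2 had 22 of 38 reading 000 and 16 reading 010. Clone 2 thus held a pair of patterns that differed at the middle CpG only, and neither was the commonest in clone 1.

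Fragment 631734, also with 5 CpGs, showed the same arrangement. Clone 1 was methylated on 46 of 48 molecules, against 1 of 41 for clone 2 (exact test, adjusted p 5.49e-17). The inner CpGs read 111 on 32 of 38 clone 1 molecules, and in clone 2 they read 000 on 18 of 36 and 010 on the other 18. Population molecules were spread more widely there, with 110 on 11 of 27, 111 on 7, and 000 and 010 on 1 each. Both patterns of clone 2 were therefore present in the population library, each on a single molecule.

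At fragment 1440069 the clones differed at every second CpG. Methylated molecules were 43 of 46 for clone 1, 5 of 52 for clone 2 and 24 of 24 for the population (exact test, adjusted p 2.11e-14). CpGs 2 and 4 carried the mark on 39 of 44 and 40 of 42 clone 1 molecules, and on 2 of 51 and 4 of 51 from clone 2. CpGs 1, 3 and 5 were methylated on 18 of 22, 40 of 43 and 19 of 21 clone 1 molecules, and on 26 of 29, 49 of 51 and 20 of 21 from clone 2. Inner molecules of clone 2 read 010 on 44 of 50, a pattern seen on 1 of 42 in clone 1 and 0 of 21 in the population. Clone 1 had 34 of 42 reading 111, as did 14 of 21 in the population. With an end CpG uncalled, a clone 2 molecule of this pattern has at most 50% of its observed CpGs methylated, and the majority rule counts it as unmethylated.

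The reverse direction gave like cases. Fragment 904495 was methylated on 4 of 45 clone 1 molecules and 46 of 48 from clone 2 (exact test, adjusted p 3.51e-15), but its CpG 2 was not called, with 9 of 42 and 20 of 45. Its inner patterns were 000 (17 of 37) and 010 (13 of 37) in clone 1 and 011 (19 of 36) and 111 (15 of 36) in clone 2. Each clone again had a main pair of patterns, and the pairs shared no member. At fragment 976246, with 4 CpGs, the outer CpGs were unmethylated in both clones, with 1 of 21 and 1 of 24 in clone 1 and 0 of 18 and 0 of 23 in clone 2. Its inner CpGs read 11 on 39 of 39 clone 2 molecules, and 01 on 27 and 00 on 16 of 43 clone 1 molecules. Fragment 148433 read 00 on 42 of 43 inner molecules in clone 1, and 11 on 22 and 01 on 9 of 31 in clone 2.

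Of the 8 named fragments with 1 clone in the middle and the other at an end, 3 held a fully methylated and a fully unmethylated inner pattern among the main ones of the middle clone. At fragment 1464928 clone 2 read 11 on 23 and 00 on 21 of 48 inner molecules, and clone 1 read 11 on 42 and 00 on 1 of 52. At fragment 405754 clone 2 read 11 on 23 and 00 on 18 of 54, and clone 1 had 0 of 50 reading 00; its inner patterns did not pass (exact test, adjusted p 0.0716), while its level did (0.000114). Fragment 253142 was the third of these, described last.

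The other 5 held at least 1 mixed pattern among the main ones. Fragment 375333 was methylated on 31 of 55 clone 1 molecules and 56 of 56 from clone 2 (exact test, adjusted p 8.76e-07). Clone 1 inner molecules read 1000 on 17 and 1111 on 16 of 39, while clone 2 read 1111 on 33 of 40 and 1000 on none. None of the population's 27 inner molecules read 1000 either, and 15 of them read 1111. At fragment 1195414 clone 1 read 0110 on 26 and 0001 on 15 of 48, patterns with opposite states at 3 of the 4 CpGs, and clone 2 read 1111 on 14 and 0111 on 9 of 27. At fragment 375354 both clones had 100 as the commonest pattern, on 17 of 33 and 40 of 46, and 111 was on 10 molecules in clone 1 and none in clone 2. At fragment 1033428 clone 2 read 010 on 32 of 33, and clone 1 read 011 on 14, 110 on 8 and 010 on 4 of 31. At fragment 754272 several patterns were found in each clone: clone 1 read 010 on 26, 000 on 13 and 100 on 10 of 52, and clone 2 read 011 on 20, 010 on 10 and 111 on 9 of 48. Its level in clone 2 joined unlike values of the strands, which call different end CpGs: 4 of 26 plus strand molecules were methylated and 25 of 29 on the minus strand, and in clone 1 these were 3 of 35 and 1 of 25. On the plus strand alone the fragment was not called (6.81 points, exact test, adjusted p 1), while on the minus strand it differed by 82.2 points. Fragment 1195414 was also uneven, with 26 of 43 plus and 7 of 36 minus strand molecules methylated in clone 1.

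Fragment 253142 was counted as 7.02% methylated in clone 1 and 43.4% in clone 2. Clone 2 read 000 on 19 and 111 on 16 of 46 inner molecules, while 43 of 54 clone 1 molecules read 100. CpG 2 was therefore higher in clone 1 (49 of 55 against 20 of 48) while CpGs 3 and 4 were higher in clone 2 (22 of 48 and 23 of 49 against 4 of 57 and 3 of 55).

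**Figure D3:**
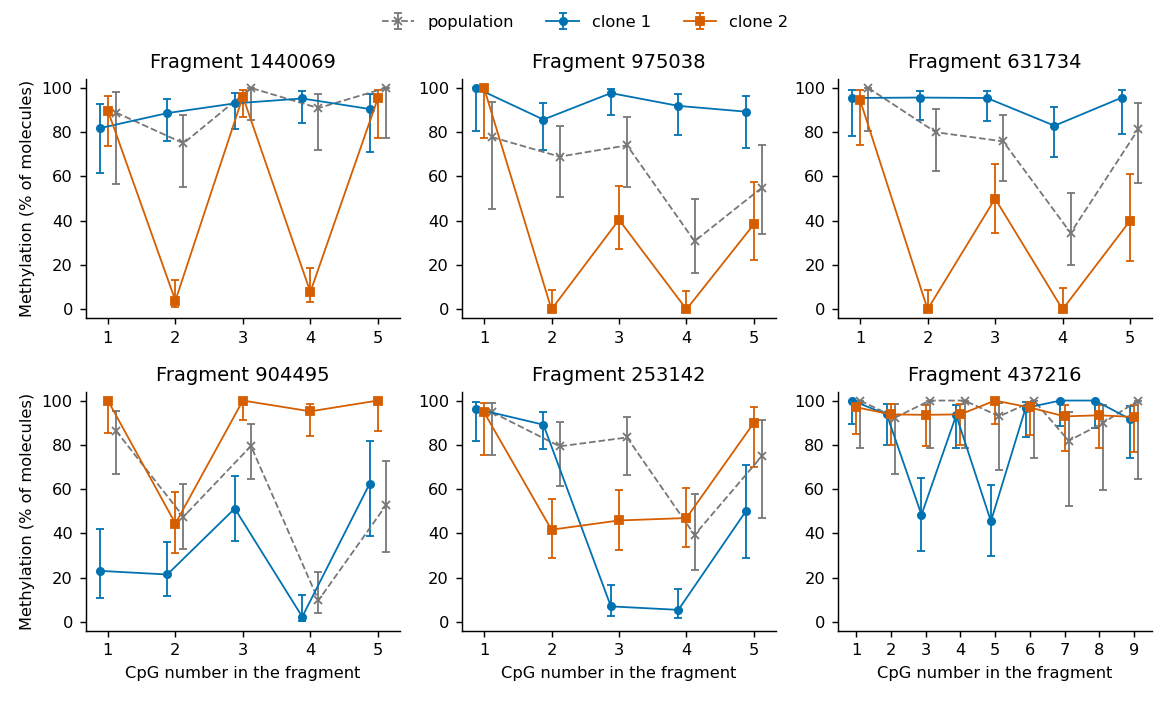
Methylation (y axis, % of molecules, bars are Wilson 95% intervals) at each CpG (x axis, numbered along the fragment) of 6 fragments in clone 1, clone 2 and the population. The clones part at some CpGs and meet at others of the same fragment, as at CpGs 2 and 4 against 1, 3 and 5 of fragment 1440069; in fragment 437216 clone 1 is near 50% at CpGs 3 and 5 and above 90% at the others.

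A called CpG had a called neighbour more often than an average CpG was called, but many had none. Of the CpGs adjacent to a called one, 24.1% were called, against 5.39% of all CpGs tested. Of 26415 called CpGs with both adjacent CpGs tested, 60.6% had neither neighbour called, 30.6% had 1 and 8.72% had both. In 33.0% both neighbours differed by less than 10 points. Of the 41997 called CpGs, 28453 lay on tested fragments that were not called as a whole, 7753 on called fragments and 5791 on fragments with fewer than 4 CpGs. Inside called fragments, 7487 of 16153 tested CpGs (46.4%) were called in the fragment's direction and 266 in the opposite one. Of 2339 called fragments with at least 4 CpGs tested, 64 had every CpG called.

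Neighbouring CpGs also went opposite ways. Of 8219 fragments with at least 2 called CpGs, 3161 held calls in both directions. Adjacent called CpGs agreed in direction in 79.0% of 8044 pairs, and called CpGs 5 to 9 apart in 69.8% of 5418. Beside a called CpG, the adjacent CpG differed in the same direction by 10.8 points on average, and CpGs 10 or more apart by 6.68 points. The medians were 3.10 and 0 points, with 52.4% and 56.9% of these CpGs within 10 points, so a minority of CpGs carried the means. The correlation of the difference across CpG pairs of the same fragment, which share molecules, fell from 0.20 for adjacent CpGs to 0.12 at 10 or more apart (Pearson, 596791 and 353865 pairs). Opposite calls were also present on the second strand: of 472 pairs called in opposite directions on the plus strand, 471 kept both directions on the minus strand and 442 differed there by at least 20 points at both CpGs. Of 447 pairs called so on the minus strand, 445 kept both directions on the plus strand.

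Fragments 45171 and 778323 were the deepest with calls in both directions. At fragment 45171, CpG 1 was methylated on 50 of 50 clone 1 molecules and 32 of 41 from clone 2, and CpG 2 on 58 of 80 and 65 of 66 (exact tests, adjusted p 0.0117 and 0.000362). At fragment 778323, CpG 2 was methylated on 24 of 52 clone 1 molecules and 32 of 40 from clone 2, and CpG 3 on 47 of 57 and 18 of 51 (exact tests, adjusted p 0.0259 and 6.04e-05). The inner pair read 01 on 24 of 48 clone 1 molecules and 1 of 36 in clone 2, and 10 on 4 and 19. Its inner patterns, tested by the commonest one, 11, were not called. CpG 2 of either fragment lost its call on each strand alone, with the direction kept. CpG 1 of fragment 45171 could be tested on the plus strand only, where it kept its call (exact test, adjusted p 0.0297). It lost its call with the clones thinned to equal numbers (exact test, adjusted p 0.0575). CpG 3 of fragment 778323 kept its call in these settings. By whole molecules these fragments did not pass (differences of 2.76 and -9.98 points, clone 2 minus clone 1). The level of fragment 778323 joined unlike values of the strands. Methylated molecules were 14 of 38 on the plus and 32 of 35 on the minus strand in clone 1, and 9 of 27 and 26 of 39 in clone 2.

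Fragments with adjacent numbers also tended to differ in the same direction. The fragment whose number followed a called one differed by 17.4 points in the same direction on average (518 pairs, 341 with the same sign and 107 with the opposite one). At 2 numbers apart the mean was 8.03 points, at 5 it was 3.79, and at 10, 50 and 1000 it was 0.898, 0.870 and 1.08. That numbers follow the order of the genome is not given in the sources used here. A called fragment needs a majority shift and a called CpG does not, so the values beside them are not compared with each other.

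**Figure D4:**
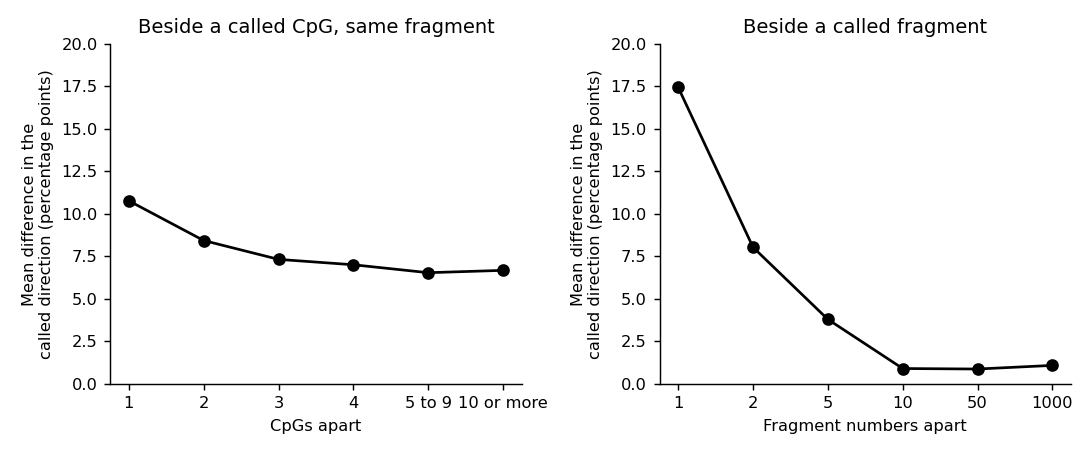
Mean difference between the clones (y axis, percentage points, positive in the direction of the call) at CpGs of the same fragment beside a called CpG (left, x axis in CpGs apart) and at fragments beside a called fragment (right, x axis in fragment numbers apart). The left curve falls from 10.8 to 6.68 points, and the right one from 17.4 to about 1 point from 10 numbers on.

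Patterns of marks along a molecule differed between the clones at many fragments whose majority levels did not. Only 583 fragments had at least 10 molecules with every CpG called in both clones, because the rebuilt fragment end is seldom called, and 10 of them (1.72%) differed in the share of the pattern commonest over both clones, 6 with the higher share in clone 1 (1.03%) and 4 in clone 2 (0.686%); 55 had an unadjusted p under 0.05 in Fisher's exact test. Patterns over the inner CpGs, without the first and the last, were therefore compared as well, a choice made after the data were seen. Of 73016 fragments with at least 4 CpGs, 10228 were called (14.0%), 5307 with the higher share in clone 1 (7.27%) and 4921 in clone 2 (6.74%). Which clone had more turned with depth: with both clones thinned to the smaller number of molecules, 3916 were higher in clone 1 and 4277 in clone 2. Patterns over the best covered 4 consecutive CpGs were called at 6719 of 63654 fragments (10.6%), with 3497 (5.49%) and 3222 (5.06%). Over the same 73016 fragments 2507 were called by majority level, and 1739 by both. The level of the clones lay within 10 points at 5634 of the 10228 inner calls (55.1%). This was a smaller share than the 82.1% among all 129568 fragments tested by level.

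At some fragments the main patterns of the clones were set apart by 1 or 2 CpGs. Fragments 81198, 437216 and 1156220 had whole patterns called while their levels lay within 10 points. At fragment 1156220, with 8 CpGs, 15 of 15 complete clone 1 molecules read 11111111, and in clone 2 2 of 12 did while 8 read 11110111 (exact test, adjusted p 0.000912). Only CpG 5 was called there, with the mark on 27 of 27 clone 1 molecules and 5 of 16 from clone 2. At fragment 437216, with 9 CpGs, clone 1 read 110101111 on 9 of 18 complete molecules and 111111111 on 5, while clone 2 read 111111111 on 21 of 26 and 110101111 on none. The pattern passed narrowly (exact test, adjusted p 0.0379), and not with the clones thinned to equal numbers (0.421) or tested among fragments with at least 5 molecules (0.068), while its CpGs 3 and 5 were called by themselves (0.00518 and 3.45e-05). Its CpGs 3 and 5 were thus unmethylated together on the same 9 clone 1 molecules. All molecules of this fragment came from the plus strand. At fragment 81198, with 4 CpGs, clone 1 read 1011 on 12 of 19 and clone 2 read 1111 on 18 of 22.

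Of all 73016 fragments, 81.4% had the same commonest inner pattern in both clones. Commonest patterns that were fully methylated in 1 clone and fully unmethylated in the other were rare, with 337 fragments methylated in clone 1 and 362 in clone 2. More often a fully methylated pattern stood against a mixed one, in 3304 fragments with clone 1 methylated and 3701 with clone 2 methylated, or an unmethylated one against a mixed one, in 1935 and 1686. In 2285 fragments the commonest patterns were mixed in both clones and not the same. A pattern with at least 5 molecules and 20% of a clone was absent from the other clone in 8168 fragments for clone 1 (11.2% of all 73016) and 6857 for clone 2 (9.39%). At the median fragment the clones shared 85.8% of their patterns by the measure of shared molecules. Clone 1 was the deeper library, with a median of 24 inner molecules per fragment against 20. The index for inner patterns was 0.159.

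Each clone held mostly 1 or 2 major patterns per fragment, and at fragments mixed in the population most did not have the same ones in both clones. A major pattern is one on at least 20% of a clone's molecules. At 3621 fragments at 20 to 80% in the population, with at least 20 inner molecules in each clone, clone 1 had exactly 1 major pattern in 36.8%, 2 in 58.5% and 3 in 3.70%, and clone 2 had them in 40.1%, 54.7% and 4.20%. The clones had the same major patterns in 25.6% of these fragments, shared some in 51.1% and shared none in 23.3%. At fragments over 80% in the population 74.5% had the same major patterns and 2.02% shared none, and under 20% these were 65.9% and 9.47%. A pattern near the 20% minimum can pass in 1 draw of molecules and miss in another. How often 2 draws from the same clone would have the same major patterns was not tested, so these shares do not measure divergence alone.

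With all libraries thinned to 20 molecules per fragment, the clones held fewer patterns than the population at fragments mixed in the population. At 1969 such fragments, 1 or 2 major patterns were found in 91.9% of fragments in clone 1 (Wilson 95% interval 90.6 to 93.0%) and 92.7% in clone 2 (91.5 to 93.8%), against 75.9% in the population (73.9 to 77.7%). These intervals give counting error over fragments only. Fragments of 1 library are not replicates of a clone or of the population. Exactly 3 major patterns were found in 7.41% and 6.70%, against 20.5%. The mean number of patterns was 3.54 and 3.46, against 5.29. Where a clone had 2 major patterns, the smaller of them held a median of 38.9% of the pair's molecules in either clone, and 37.5% in the population, values that the minimum of 20% partly sets. The population's own mixed level chose these fragments, so its number of patterns there is not independent of the choice. Over all 18224 fragments at this depth, 1 or 2 major patterns were found in 98.0% for clone 1, 98.3% for clone 2 and 96.7% for the population, and exactly 1 in 72.9%, 75.2% and 75.9%.

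**Figure D5:**
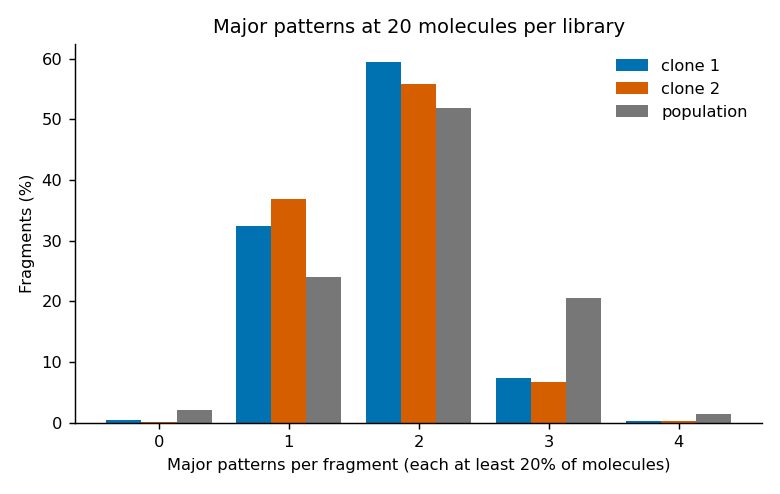
Share of fragments (y axis, %) with 0 to 4 major inner patterns (x axis) in clone 1, clone 2 and the population, each thinned to 20 molecules at 1969 fragments that were at 20 to 80% in the population. The clones have 1 or 2 in 91.9% and 92.7% of fragments, and the population has 3 in 20.5%.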

How the data were processed

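Mouse CD8+ T cell DNA was cut with MspI, size selected to 200 to 500 bp, tagged, converted with bisulfite and sequenced, per the labels' protocols. The deposited files have no header. Their lines hold a fragment number, a strand, a tag, a string with 1 character per CpG (0, 1 or not called), a whole-number count, read here as the authors' reads per tag and not normalized, and a further whole number of unstated meaning. Bismark and the build mm9 are named in the submitters' processing notes. The sources used here name no filters and do not say how replicates were pooled.

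Each line was 1 molecule. The files use 77 tags, so a fragment can show at most 154 molecules on 2 strands, and separate molecules of deep fragments can merge. PCR copies were not counted apart. CpGs, fragments with at least 4 CpGs and whole patterns (at least 2 CpGs, every CpG called) were compared with at least 10 molecules in both clones by two-sided Fisher's exact tests on molecules, with Benjamini-Hochberg adjustment over all items of that kind; items were called at an adjusted p below 0.05 with levels 20 or more points apart. Patterns were tested as the commonest of both clones pooled against the rest. Named fragments had the most molecules in the less covered clone within each class: 3 per direction at opposite ends, 2 per combination of an end and the middle, 3 with called patterns and levels within 10 points, 2 with opposite CpG calls, and 2 at 40 to 60% in both. Members, lists and rules were chosen with earlier results of these data known. Python 3.11.15, numpy 2.4.6, scipy 1.17.1 and pandas 2.3.3 were used, and the tests were checked on simulated data. Coverage minimums, strands, read minimums, rebuilt ends, thinning and pattern scopes were varied.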

Additional observations from a re-analysis of the deposited data

How the results depend on the processing

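No paired analysis was possible because both replicates of a clone share 1 file, which also leaves no replicate to omit. The 41997 CpG calls fell to 13261 on the plus strand, 13227 on the minus strand, 3011 with at least 2 reads, 25828 and 10269 at minimums of 20 and 30 molecules, and 12466 with 1 CpG per fragment; these settings test fewer molecules or CpGs. The CpG index was 0.206 (plus), 0.2055 (minus), 0.18997 (2 reads), 0.205 (without molecules whose last value exceeds 0), 0.209 (without strands over 25 molecules), 0.207 (without rebuilt ends), 0.198 and 0.185 (20 and 30 molecules) and 0.2003 (1 CpG per fragment). The mean difference was 0.556, 0.528, 0.74997, 0.518, 0.556, 0.7202 and 0.693 points on the plus strand, minus strand, with 2 reads, without strands over 25, at 20, at 30 and with 1 CpG per fragment. The 3188 fragment calls became 946 (plus), 905 (minus), 219 (2 reads), 1481 (30 molecules), 7856 (molecules methylated at all observed CpGs), 1712 (at least 4 observed CpGs), 6955 (fragments from 2 CpGs) and 289 (from 10 CpGs). The 10 whole-pattern calls became 4 (plus), 5 (minus), 0 (2 reads), 1 at 20 and 1 at 30 molecules, 6 (from 4 CpGs), 6719 (4 consecutive CpGs) and 10228 (inner CpGs, added); without rebuilt ends no complete pattern was left. With 2 reads, 14 fragments were tested. The pattern index, 0.0917, was 0.0913 (plus), 0.0960 (minus), 0.0219 (2 reads), 0.0870 (last value), 0.104 (strands over 25), 0.104 (5 molecules), 0.0204 and 0.0220 (20 and 30), 0.165 (4 consecutive), 0.0855 (from 4 CpGs) and 0.159 (inner). Inner calls, 10228, became 3213 (plus), 3276 (minus) and 6508 (20 molecules). Shares with 1 or 2 major patterns were 81.4% and 83.2% against 49.01% in the population with major patterns from 15% of molecules, and 98.3% and 98.1% against 89.5% from 30%; all settings for inner and major patterns were added after the data were seen. Fragment 1389141, in the middle in both clones and not called (-0.938 points), turned to 9.76 (plus), 0.260 (2 reads), 0.543 (last value) and 0.994 (4 observed CpGs). For named fragments and CpGs, 254 of 295 values kept direction and call and 37 lost the call in the same direction. The cause was not tested. This count is partly fixed by the choice of deep items. Changing the coverage minimum or the minimum difference left their percentage differences as they were. A fragment never called counts as kept while it stays uncalled, and items left with too few molecules drop out of the count.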

Other observations

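The deepest sites had a low between-clone index and were called less often than those with 20 to 49 molecules, though more often than all CpGs together. At 3167 CpGs with 50 or more molecules in the less covered clone the index was 0.0681, against 0.191 at 30 to 49 molecules, 0.205 at 20 to 29 and 0.209 at 10 to 19, although molecules of the same clone differed there with a chance of 18.4%, the highest of these classes. Of these CpGs 6.69% were called, against 9.98% at 30 to 49 molecules, 6.95% at 20 to 29 and 3.74% at 10 to 19, where fewer molecules limit the calls. Among the called ones with 50 or more molecules, 64 were higher in clone 1 and 148 in clone 2. The median absolute difference over the 3167 CpGs was 3.53 points. The deepest fragments at 40 to 60% in both clones, 1389141 with 17 CpGs and 1389157 with 18, had 148 and 144 molecules in clone 1 and 144 and 146 in clone 2, close to the 154 that the tags allow. Fragment 1389141 had 61 methylated molecules in clone 1 and 58 in clone 2, and 41 of 144 in the population. Of clone 1 molecules with at least 4 called CpGs there, 31 were fully methylated, 52 fully unmethylated and 59 mixed, and in clone 2 these were 25, 46 and 70. Fragment 1389157 had 76 and 68 methylated molecules in the clones and 35 of 140 in the population.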
